A study of Mus musculus with 97 samples.

Results

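Intraperitoneal ampicillin was compared with intraperitoneal phosphate buffered saline (PBS) in the mouse colon, over the 6 libraries labelled Ampicillin-IP and the 4 labelled PBS-IP, 10 of the 97 libraries of the series. All came from whole colon of C57BL6/J mice of wild-type genotype, aged 8 to 12 weeks. Ampicillin-IP mice received 2.5 mg of ampicillin in 100 µl of PBS into the peritoneal cavity, PBS-IP mice the same volume of PBS alone, 2 times a day for 3 days with 1 more dose on day 4, and colon was taken 4 hours after the last dose. Poly(A) RNA was sequenced, and the deposited values are TPM, transcript abundances corrected for length and scaled to the same sum in every library. The number of reads behind a value is therefore unknown. The mice were kept under 12 hours of light and 12 hours of dark. The clock time of tissue collection is not given in the sources used here, and the labels do not state whether each replicate is a mouse of its own. The p-values below rest on each gene's spread within groups, estimated over all 97 libraries of the series. Some of that spread may be technical.

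Ampicillin is a beta-lactam that blocks bacterial cell wall synthesis, and from the peritoneal cavity it reaches the colon through the circulation. The circadian clock recurs in the results below. In it, the protein encoded by Arntl pairs with that of Clock or Npas2 and activates genes through E-box elements, and the Per, Cry and Ciart proteins repress that pair. The receptors encoded by Nr1d1 and Nr1d2 repress, and ROR receptors activate, genes with a ROR element, and the products of Dbp, Tef and Hlf activate, while that of Nfil3 represses, genes with a D-box. In the gut epithelium this clock is known to follow feeding and microbial signals as well as the time of day.

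The libraries were not alike in their smooth muscle and posterior Hox transcripts; whether they came from different stretches or layers of colon was not tested. A score for smooth muscle, averaging log2(TPM + 1) over 18 of its genes, was 9.14, 7.48, 8.72, 10.95, 10.71 and 8.42 in Ampicillin-IP replicates 1 to 6 and 8.23, 9.05, 8.26 and 9.05 in PBS-IP replicates 1 to 4. Myh11, the smooth muscle myosin, ran from 778.6 to 10802 TPM in Ampicillin-IP and from 1650 to 2746 TPM in PBS-IP. The posterior Hox score, the mean of 7 tested Hox genes that mark the distal end of the gut, was 4.997, 4.25, 4.22, 3.21, 3.12 and 1.67 in Ampicillin-IP and 5.06, 4.78, 1.92 and 4.99 in PBS-IP. Of these genes Hoxb13 spanned the widest range, from 0.159 TPM in Ampicillin-IP replicate 6 and 0.221 TPM in PBS-IP replicate 3 to 549 TPM in Ampicillin-IP replicate 2. The same 2 libraries with next to no Hoxb13 had the highest Slc51a, a bile acid transporter subunit, at 642.1 and 122.1 TPM, and the highest Car1, a carbonic anhydrase, at 15740 and 8394 TPM. PBS-IP replicate 3 also had 25.1% of its TPM in transcripts of the mitochondrial genome, against 6.44% to 10.9% in the other 9 libraries. Muc2, the gut mucin of goblet cells, was present in every library, between 457.1 and 3627 TPM. In the results that follow, the 4 libraries with a posterior Hox score under 4 (Ampicillin-IP replicates 4, 5 and 6 and PBS-IP replicate 3) were also left out together, a choice made after their values were seen. Leaving them out did not even out the posterior Hox genes between the groups. In Ampicillin-IP against PBS-IP their median log2 fold change was −0.65 with all 10 libraries and −0.68 without the 4. With all libraries 7 of 7 were negative and 0 were called.

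**Figure D1:**
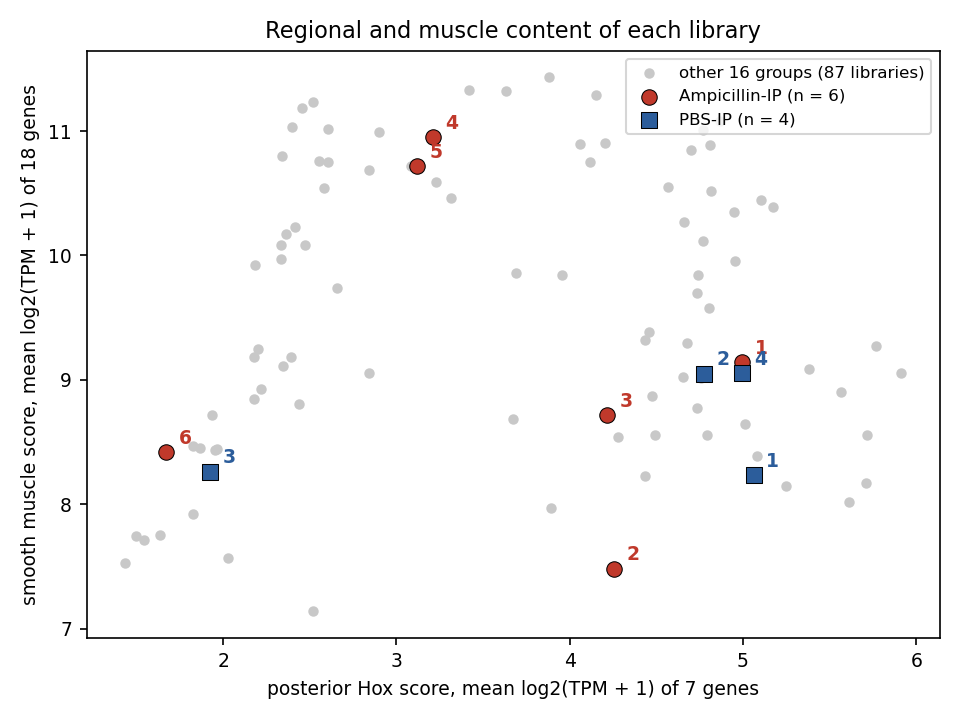
Smooth muscle score (y axis) against posterior Hox score (x axis), both as mean log2(TPM + 1), for 97 libraries: red circles are Ampicillin-IP, blue squares PBS-IP, with replicate numbers, and grey points the other 16 groups. Ampicillin-IP replicates 4 and 5 lie high in muscle, and Ampicillin-IP replicate 6 and PBS-IP replicate 3 lie at the low end of the posterior Hox score.

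After ampicillin, 70 genes stood higher and 14 lower than in PBS-IP. The largest falls included the clock genes Dbp and Ciart, and the largest rises the phosphate transporter Slc34a2, the clock activator Npas2, the pseudokinase Trib1 and the growth factor Hbegf. A gene counted as changed at a Benjamini-Hochberg adjusted p under 0.05 over all 17083 tested genes in limma, on log2(TPM + 1), a scale on which the changes of weakly expressed genes come out too small. The 84 called genes were 0.492% of the genes tested (0.41% higher, 0.082% lower), with 1685 genes at an unadjusted p under 0.05. Over all tested genes, the TPM ranges of the groups did not overlap for 3.32% (2.39% higher and 0.931% lower after ampicillin). In bulk tissue, fewer cells of a type and less RNA per cell cannot be told apart. The balance of rises and falls depended on the scaling and on the libraries. The share of called genes that were higher was 83.3% as deposited, 84.4% with a pseudocount of 0.1 TPM, 72.2% with a pseudocount of 10 TPM and 65.2% with quantile normalization. It was 46.7% when TPM were rescaled without mitochondrial genes, so that falls then outnumbered rises. Of the 84 genes, 23 were called whichever of the 10 libraries was left out, 26 in 5 to 9 of those fits and 35 in 0 to 4. The count fell to 47 without Ampicillin-IP replicate 4, to 38, 42 and 34 without PBS-IP replicates 1, 2 and 4, and rose to 136 without PBS-IP replicate 3. Falls outnumbered rises in that last fit, with 58 genes higher and 78 lower.

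Without the 4 libraries of low posterior Hox score, 3 genes were called, 0.0176% of those tested: Dbp and Nr1d2 lower (0.0117%), and Npb, a neuropeptide gene named after its values were seen, higher (0.00585%). Fold changes moved less than the calls. All 84 genes kept the sign of their change with the 3 libraries left in each group, and the median size of the change was 0.88 on the log2 scale both with all 10 libraries and with the remaining ones. The 84 genes were called on data that include these remaining libraries. Their kept signs and sizes are therefore no independent check. The median over all tested genes was 0.05 with all libraries and −0.05 without the 4, a shift of −0.10.

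**Figure D2:**
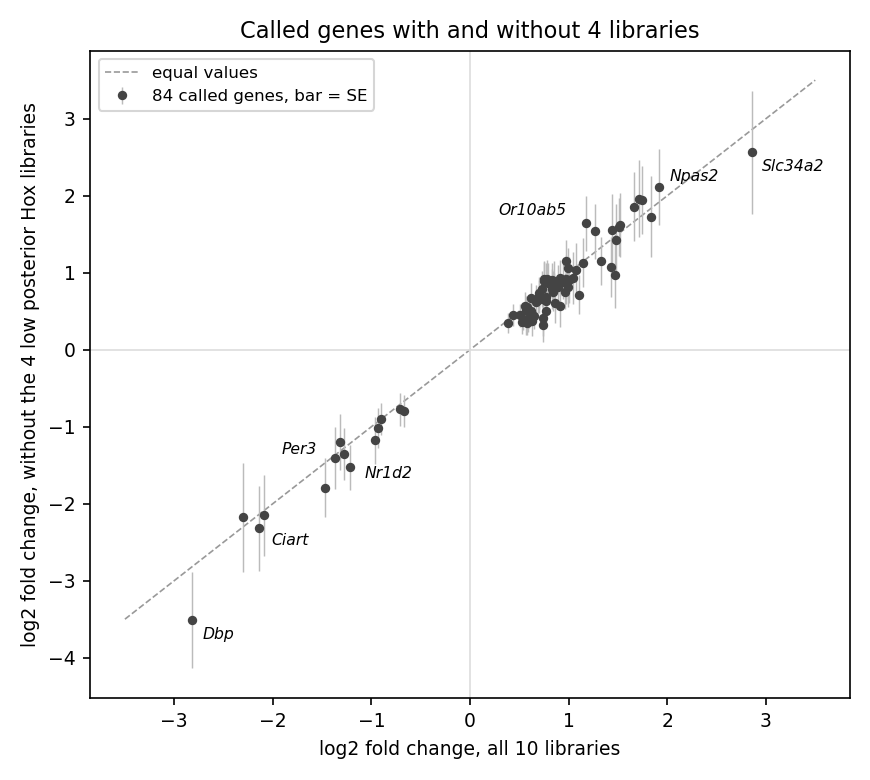
Log2 fold change of the 84 called genes in Ampicillin-IP against PBS-IP with all 10 libraries (x axis) and without the 4 libraries of low posterior Hox score (y axis, with its standard error as a bar). All 84 points lie in the lower left or upper right corner, along the dashed line of equal values. The genes were called on the 10 libraries, which include those behind the y axis.

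The promoters of 4 called genes from the clock and clock-controlled lists described below are shown because they hold the elements named above. They run from 250 bases before to 50 bases after the gene start and were taken from RefSeq on GRCm38.p6, an earlier build than the GRCm39 used for the TPM. Capitals mark matches on either strand to the E-box CACGTG, to the D-box TTATGTAA or TTACGTAA, or to the ROR element core TAGGTCA, and positions count bases upstream of the gene start. Ciart lies at chr3:95882179-95882478 on the minus strand with E-boxes at 116, 58 and 44. Per3 lies at chr4:151044616-151044915 on the minus strand with D-boxes at 205 and 158. For Coq10b the window is chr1:55052520-55052819 on the plus strand, with a D-box at 162 and an E-box at 78, and for Nfil3 it is chr13:52980990-52981289 on the minus strand, with a ROR element core at 12.
Ciart: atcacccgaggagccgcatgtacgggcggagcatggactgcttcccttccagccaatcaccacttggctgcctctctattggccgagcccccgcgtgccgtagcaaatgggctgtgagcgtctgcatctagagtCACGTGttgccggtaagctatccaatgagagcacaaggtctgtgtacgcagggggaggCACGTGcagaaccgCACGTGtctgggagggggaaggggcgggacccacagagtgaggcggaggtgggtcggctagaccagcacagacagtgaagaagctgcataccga
Per3: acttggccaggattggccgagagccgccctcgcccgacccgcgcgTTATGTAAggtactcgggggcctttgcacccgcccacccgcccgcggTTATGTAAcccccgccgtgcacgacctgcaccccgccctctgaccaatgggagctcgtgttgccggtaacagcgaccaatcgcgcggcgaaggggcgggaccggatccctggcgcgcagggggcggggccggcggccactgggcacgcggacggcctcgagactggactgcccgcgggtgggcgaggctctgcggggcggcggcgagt
Coq10b: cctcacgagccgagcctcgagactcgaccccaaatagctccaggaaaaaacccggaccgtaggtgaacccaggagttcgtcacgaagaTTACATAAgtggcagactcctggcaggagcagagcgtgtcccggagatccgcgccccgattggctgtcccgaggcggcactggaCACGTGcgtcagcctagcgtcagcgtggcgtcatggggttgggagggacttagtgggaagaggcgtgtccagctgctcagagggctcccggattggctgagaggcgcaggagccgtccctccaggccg
Nfil3: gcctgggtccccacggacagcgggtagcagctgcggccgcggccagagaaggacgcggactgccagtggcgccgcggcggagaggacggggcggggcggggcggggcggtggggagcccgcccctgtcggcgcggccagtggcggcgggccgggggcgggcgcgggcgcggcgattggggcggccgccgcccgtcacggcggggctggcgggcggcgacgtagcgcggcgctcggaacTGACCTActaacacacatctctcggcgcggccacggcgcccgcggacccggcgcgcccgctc
Of 32851 RefSeq promoter windows of 300 bases, 7.15% hold this E-box, 1.06% this D-box and 2.61% this ROR core. The windows of Dbp, Nr1d2, Npas2 and Slc34a2 hold none of these letters. A match is a description of the sequence and says nothing of what binds there.

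Among the output factors that act at D-boxes, Dbp stood at 248.4, 238.0, 149.4 and 265.5 TPM in the 4 PBS-IP libraries and at 14.4 to 66.2 TPM, with a median of 30.0, in the 6 Ampicillin-IP libraries. The groups did not overlap, and the PBS-IP library nearest to ampicillin was replicate 3. The fall of Dbp was −2.82 in log2 units (SE 0.50, limma adjusted p = 0.00193), and −3.51 without the 4 low posterior Hox libraries (limma adjusted p = 0.00481). Nfil3, the repressor at the same element, rose by 1.52 (SE 0.32, limma adjusted p = 0.00776), from 1.29, 1.73, 2.86 and 1.37 TPM to between 4.23 and 8.55 TPM with a median of 7.20. Each Ampicillin-IP library was above each PBS-IP library for Nfil3 and below each for Dbp. Tef, a relative of Dbp, was at 276.9, 160.3, 164.6 and 150.2 TPM in PBS-IP against 42.9 to 94.1 TPM, also without overlap, but did not pass the test (log2 fold change −1.54, limma adjusted p = 0.0695). Hlf, the other relative, ranged from 2.38 to 65.4 TPM in Ampicillin-IP and from 5.88 to 35.1 TPM in PBS-IP, and its highest values were in the muscle-rich Ampicillin-IP replicates 4 and 5.

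Of 10 clock repressors, 3 fell, 0 rose and 7 were not called, with a median log2 fold change of −0.63 against 0.05 over all genes tested. Of all tested genes 0.082% were called lower and 0.41% higher. Ciart stood at 32.8, 21.9, 13.8 and 18.6 TPM in PBS-IP and between 2.71 and 6.23 TPM, with a median of 3.77, in Ampicillin-IP, a fall of 2.14 (SE 0.43, limma adjusted p = 0.00302). Per3 fell by 1.37 (SE 0.32, limma adjusted p = 0.0176), from 90.0, 60.7, 60.7 and 64.1 TPM to between 20.03 and 34.5 TPM with a median of 25.5. Nr1d2 fell by 1.22 (SE 0.23, limma adjusted p = 0.00211), from 174.5, 115.8, 123.7 and 119.3 TPM to between 38.4 and 89.6 TPM with a median of 50.1. For all 3 every Ampicillin-IP library was below every PBS-IP library, which held for 0.931% of all tested genes. Nr1d1, the paralog of Nr1d2, was at 169.2, 166.6, 132.1 and 179.9 TPM in PBS-IP and at 79.8 to 132.2 TPM in Ampicillin-IP (log2 fold change −0.59, limma adjusted p = 0.218). Levels of Per1 lay between 31.0 and 44.8 TPM after ampicillin and between 25.6 and 37.7 TPM after PBS, and the groups overlapped for Per2 and Cry1 as well, with Per2 between 7.499 and 60.4 TPM after ampicillin and between 18.3 and 67.4 TPM after PBS.

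On the activating side, Npas2 rose by 1.92 (SE 0.38, limma adjusted p = 0.00302). It stood at 9.26, 7.01, 10.1 and 6.77 TPM in PBS-IP and between 27.1 and 38.0 TPM, with a median of 33.9, in Ampicillin-IP, so the groups were far apart and narrow. Arntl, its partner, was at 20.6, 9.71, 6.74 and 14.04 TPM against 28.7 to 52.0 TPM with a median of 40.9, without overlap, and missed the threshold (log2 fold change 1.66, limma adjusted p = 0.0753). Clock, the other partner of Arntl, overlapped between the groups, at 56.4 to 94.4 TPM against 51.8 to 87.3 TPM. The 5 activators had a median log2 fold change of 1.11, with 1 called higher, beside 0.41% of all tested genes.

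Among 7 genes listed as clock-controlled 1 fell, 1 rose and 5 were not called, beside 0.082% lower and 0.41% higher of all tested genes. The members were chosen with earlier results of these data known, so this count is no independent sign of a clock change. Coq10b, which helps coenzyme Q work in the respiratory chain, fell by 0.91 (SE 0.17, limma adjusted p = 0.00211), from 85.8, 54.1, 44.0 and 60.9 TPM to between 25.7 and 36.2 TPM. Leo1, a subunit of the PAF complex that travels with RNA polymerase, rose by 0.84 (SE 0.16, limma adjusted p = 0.00211), from 11.1, 13.3, 10.7 and 10.6 TPM to between 18.4 and 25.0 TPM. Neither gene overlapped between the groups, which held for 3.32% of all tested genes. Usp2, a deubiquitinase with a clock-driven transcript, was at 61.8, 52.2, 65.8 and 67.8 TPM in PBS-IP and 21.4 to 56.0 TPM in Ampicillin-IP (log2 fold change −0.79, limma adjusted p = 0.485).

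Dbp, Ciart, Nr1d2, Npas2, Coq10b and Leo1 were called whichever library was left out, with limma adjusted p up to 0.0184, 0.0412, 0.0349, 0.024, 0.0411 and 0.0184. Nfil3 lost its call when PBS-IP replicate 1 or 4 was left out (limma adjusted p up to 0.0518), and Per3 not without Ampicillin-IP replicates 3 or 4 or PBS-IP replicates 1 or 4 (up to 0.11). Over the 10 libraries, the 5 genes whose log2(TPM + 1) was closest to that of Dbp by absolute Pearson r were Nr1d2 (0.96), Pip4k2c (−0.95), Tprn (−0.95), Npas2 (−0.95) and Slc7a9 (−0.95), a description in which the difference between the groups is included.

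**Figure D3:**
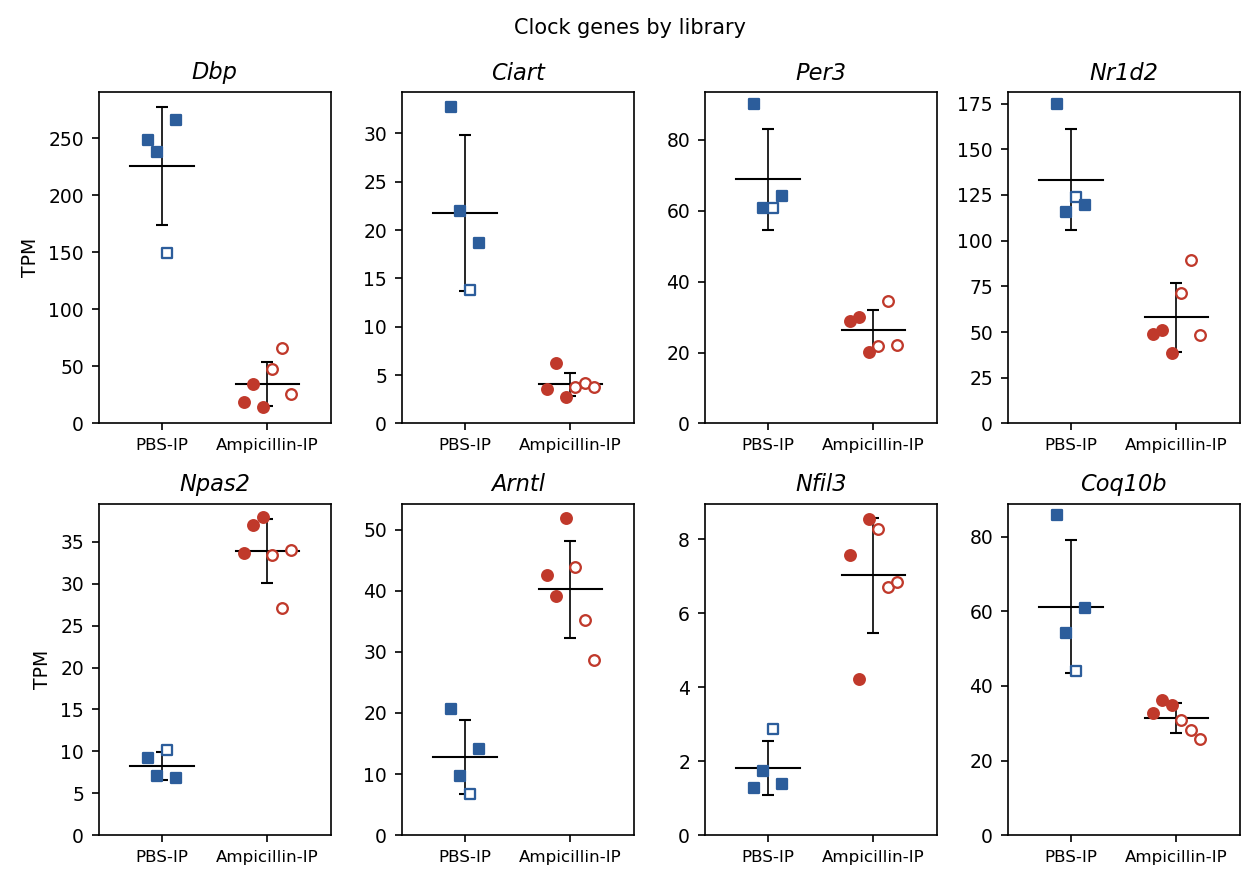
TPM of 8 genes from the clock and clock-controlled lists by library, PBS-IP as blue squares (n = 4) and Ampicillin-IP as red circles (n = 6), with the mean as a line and the SD as a bar. Open symbols are the 4 libraries of low posterior Hox score. In each panel the 2 groups do not overlap, and open and filled symbols of one group lie on the same side of the other group; Arntl did not pass the test.

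Some single transporter and enzyme genes were among the rises. Slc34a2, the sodium-dependent phosphate cotransporter of epithelial apical membranes, stood at 9.32, 9.48, 10.1 and 17.3 TPM in PBS-IP and between 58.5 and 133.0 TPM, with a median of 88.1, in Ampicillin-IP. That rise of 2.86 (SE 0.62, limma adjusted p = 0.00804) was 2.56 without the 4 low posterior Hox libraries, where it was not called (limma adjusted p = 0.297). It was the only called gene of 15 for phosphate and sodium transport, whose median log2 fold change was 0.02. Of all tested genes 0.41% were called higher. Slc25a25, a mitochondrial carrier of ATP and phosphate, rose by 1.44 (SE 0.36, limma adjusted p = 0.0354), from 10.3, 19.0, 22.3 and 13.3 TPM to between 33.4 and 54.0 TPM. Slc3a2, the heavy chain of amino acid exchangers, rose by 1.05 (SE 0.27, limma adjusted p = 0.0415), and here the lowest Ampicillin-IP library, at 62.2 TPM, met the highest PBS-IP library, at 62.3 TPM. Slc25a25 was called in 3 of the 10 fits with a library left out (without Ampicillin-IP replicates 2 or 5 or PBS-IP replicate 3) and Slc3a2 also in 3 (without Ampicillin-IP replicates 5 or 6 or PBS-IP replicate 1), with limma adjusted p up to 0.168 and 0.189 in the others.

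A few called genes of this kind were named after their values were seen. Slc26a4, the chloride and iodide exchanger pendrin, was at 3.43, 1.34, 0.903 and 0.539 TPM in PBS-IP and at 2.59 to 18.01 TPM in Ampicillin-IP, a rise of 1.84 (SE 0.42, limma adjusted p = 0.0168) with 1 Ampicillin-IP library inside the PBS-IP range. Me3, the mitochondrial malic enzyme, rose by 1.26 (SE 0.29, limma adjusted p = 0.0153), from 5.55, 6.14, 4.74 and 6.11 TPM to between 6.48 and 28.5 TPM. Hk1, the hexokinase that starts glucose use, rose by 0.78, from between 98.8 and 113.8 TPM to between 152.6 and 210.7 TPM, and Mfn2, which fuses mitochondria, rose by 0.97, from between 68.5 and 112.3 TPM to between 136.6 and 200.6 TPM (limma adjusted p = 0.0354 and 0.00799). Left-out libraries ended calls here too: Slc26a4 without Ampicillin-IP replicate 4 or PBS-IP replicates 2 or 4 (limma adjusted p up to 0.119), Me3 without Ampicillin-IP replicate 2 or PBS-IP replicates 1 or 4 (up to 0.0696), and Mfn2 without PBS-IP replicates 1 or 2 (up to 0.0727). Hk1 was called in 3 of the 10 fits (not without Ampicillin-IP replicates 1 to 4 or PBS-IP replicates 1, 2 or 4, limma adjusted p up to 0.126).

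Several single genes of signalling were also among the rises. Trib1, a pseudokinase that directs other proteins to the ubiquitin ligase COP1, was in PBS-IP at 40.1, 38.5, 40.0 and 37.4 TPM. After ampicillin it was at 105.5 to 158.5 TPM with a median of 143.7, a rise of 1.74 (SE 0.35, limma adjusted p = 0.00302). Ier5, an immediate early gene, rose by 1.00 (SE 0.21, limma adjusted p = 0.00799), from 35.4, 35.3, 44.2 and 33.6 TPM to between 56.0 and 118.0 TPM. These were the 2 called of 18 immediate early genes, of which 13 had a positive and 5 a negative log2 fold change, with a median of 0.41. Over all tested genes 0.41% were called higher, 9730 of 17083 had a positive log2 fold change, and the median was 0.05. Trib1 was called whichever library was left out (limma adjusted p up to 0.0187), and Ier5 was not called without PBS-IP replicate 4 (limma adjusted p = 0.053).

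Hbegf, a ligand of the EGF receptor, rose by 1.72 (SE 0.40, limma adjusted p = 0.0197). Its levels were 4.65, 4.96, 22.4 and 7.53 TPM in PBS-IP and 21.97 to 37.8 TPM, with a median of 29.0, in Ampicillin-IP, and PBS-IP replicate 3 alone reached the ampicillin range. It was 1 of 11 tested genes for the EGF receptor and its ligands to be called, and that list had a median of 0.43. Over all tested genes 0.41% were called higher, with a median of 0.05. Bmp3, a secreted member of the TGF-beta family, rose by 1.48 (SE 0.37, limma adjusted p = 0.0389), from 37.3, 45.5, 45.6 and 35.3 TPM to between 85.0 and 208.5 TPM. Rcan1, an inhibitor of the phosphatase calcineurin, rose by 1.67 (SE 0.36, limma adjusted p = 0.00799), from 7.55, 9.45, 4.01 and 4.60 TPM to between 9.54 and 36.3 TPM. Neither Bmp3 nor Rcan1 overlapped between the groups, which held for 3.32% of all tested genes. Hbegf was not called without Ampicillin-IP replicate 4 or PBS-IP replicates 1, 2 or 4 (limma adjusted p up to 0.139), Rcan1 not without PBS-IP replicate 4 (0.0618), and Bmp3 not without Ampicillin-IP replicates 1, 3, 4 or 6 or PBS-IP replicates 1, 2 or 4 (up to 0.135).

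**Figure D4:**
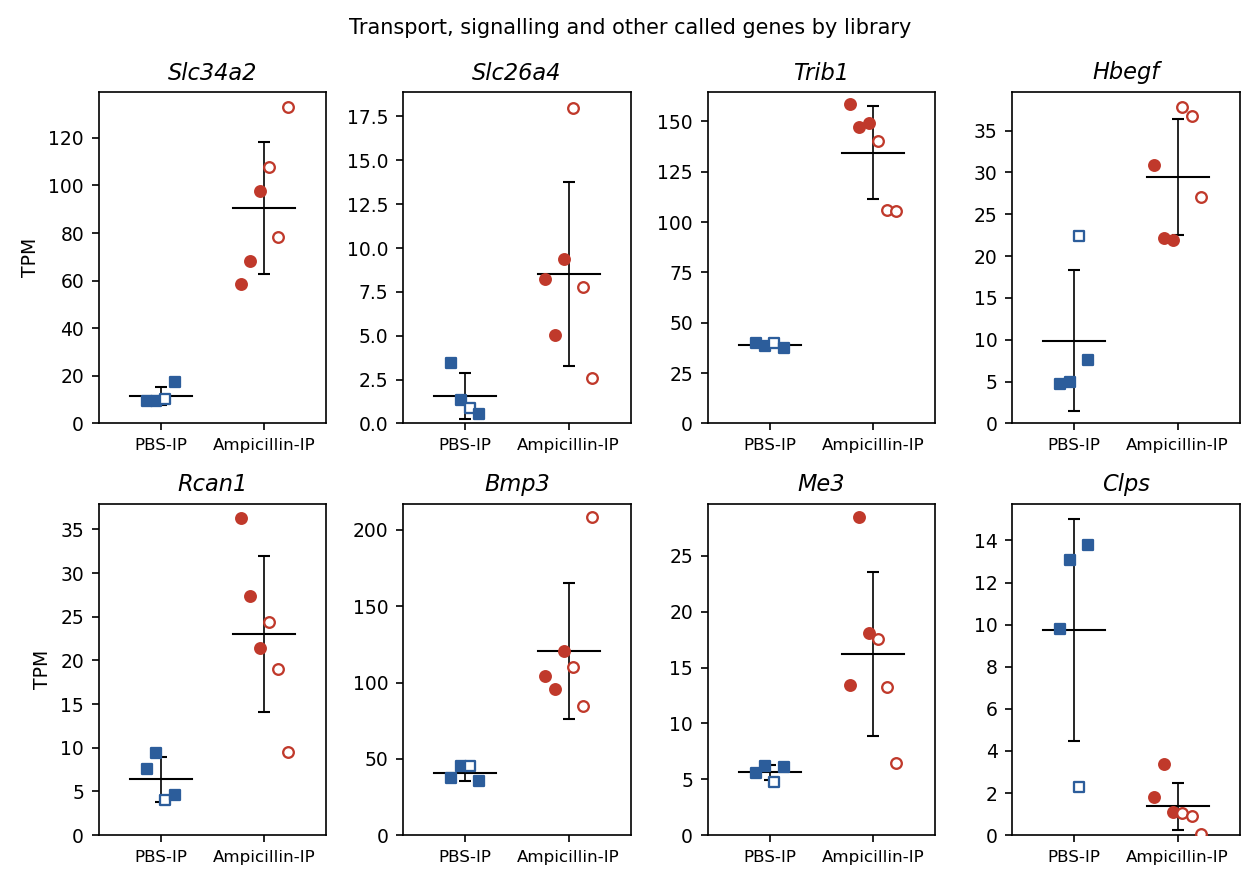
TPM of 8 called genes by library, PBS-IP as blue squares (n = 4) and Ampicillin-IP as red circles (n = 6), with the mean as a line and the SD as a bar; open symbols are the 4 libraries of low posterior Hox score. Trib1 and Slc34a2 separate fully, while PBS-IP replicate 3 lies within the ampicillin range for Hbegf and Clps.

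The other rises of the naming rule were spread over functions. Tppp, which promotes tubulin polymerization, rose by 1.51, from between 28.6 and 53.0 TPM to between 54.6 and 187.1 TPM (limma adjusted p = 0.00461). Ypel2 rose by 1.33, from between 9.01 and 14.3 TPM to between 22.1 and 41.9 TPM (limma adjusted p = 0.00211). Bok, a BCL2 family member that promotes cell death, rose by 1.14, from between 14.97 and 21.7 TPM to between 24.1 and 57.2 TPM (limma adjusted p = 0.00977). Dennd2b, whose DENN domain activates Rab proteins, rose by 0.99, from between 37.9 and 42.7 TPM to between 64.0 and 90.3 TPM (limma adjusted p = 0.00407). These 4 genes were called whichever library was left out. They did not overlap between the groups, which held for 3.32% of all tested genes.

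Itpripl2 rose by 1.47, from between 12.2 and 21.2 TPM to between 28.9 and 90.1 TPM (limma adjusted p = 0.0281), with its 3 highest values in the low posterior Hox replicates 4, 5 and 6, and its log2 fold change was 0.97 without the 4 libraries. Neurl1b, a ubiquitin ligase that acts on Notch ligands, rose by 1.07, from between 29.7 and 42.1 TPM to between 53.8 and 130.5 TPM (limma adjusted p = 0.0393). Or10ab5, an olfactory receptor gene, rose by 1.17, from 9.85, 5.73, 21.6 and 8.42 TPM to between 17.1 and 27.5 TPM (limma adjusted p = 0.0354), and since such receptors form a large family of similar sequences its assignment of reads is uncertain. These 3 were called in few of the fits with a library left out: Itpripl2 in 4 (without Ampicillin-IP replicates 1, 2 or 3 or PBS-IP replicate 3), Neurl1b in 2 (without Ampicillin-IP replicates 1 or 5) and Or10ab5 in 2 (without Ampicillin-IP replicate 6 or PBS-IP replicate 3), with limma adjusted p up to 0.131, 0.168 and 0.259 in the others.

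Of the 14 falls, 5 were on the clock and clock-controlled lists (Dbp, Ciart, Per3, Nr1d2 and Coq10b), and 9 were others. Of all tested genes 0.082% were called lower. These lists were chosen with earlier results of these data known, so the count is no independent sign of a clock change. Odf2l, a centriole protein gene, fell by 0.93 (SE 0.20, limma adjusted p = 0.00935), from 23.6, 21.0, 17.6 and 18.6 TPM to between 7.24 and 14.7 TPM. Lrrc40 fell by 0.71 (SE 0.17, limma adjusted p = 0.03), from 24.5, 22.05, 13.9 and 21.98 TPM to between 9.65 and 14.2 TPM, with PBS-IP replicate 3 in the ampicillin range. Without PBS-IP replicate 1 Odf2l was not called (limma adjusted p = 0.0762), and Lrrc40 was not called without Ampicillin-IP replicates 4 or 6 or PBS-IP replicates 1, 2 or 4 (up to 0.147).

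The remaining 7 falls were named after their values were seen. Clps, colipase, a cofactor of fat digestion, fell by 2.09 (SE 0.44, limma adjusted p = 0.00549), from 9.78, 13.1, 2.28 and 13.8 TPM to between 0.0661 and 3.37 TPM. Lefty1, a secreted inhibitor of Nodal signalling, fell by 1.32 (limma adjusted p = 0.0271), from 11.3, 13.99, 3.20 and 12.7 TPM to between 1.17 and 6.50 TPM. For both, PBS-IP replicate 3 lay in the ampicillin range. H2ac6, a histone gene of a family with similar sequences whose transcripts mostly lack a poly(A) tail, fell by 1.47, from between 4.66 and 8.05 TPM to between 1.099 and 2.33 TPM (limma adjusted p = 0.00461), a value that read sharing makes uncertain. The other falls were Saxo1 and the predicted gene models Gm12551, Gm10051 and Gm48583. Clps lost its call when PBS-IP replicate 2 or 4 was left out (limma adjusted p up to 0.0618), and Lefty1 not without Ampicillin-IP replicates 4, 5 or 6 or PBS-IP replicates 1, 2 or 4 (up to 0.169).

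Lists of related genes, chosen with earlier results of these data known, held few called genes. Of 44 lists, 37 had 0 members called in either direction, beside 0.492% of all genes tested, including the lists for every cell type, the interferon, stress and cholesterol lists and the drug transporter and xenobiotic enzyme lists. At that share most lists this short would have 0 called, so the 0 counts say little about these lists. Some of their medians lay away from the 0.05 of all genes, of which 9730 of 17083 had a positive log2 fold change. Smooth muscle genes had a median log2 fold change of 0.62 with 18 of 18 positive, and −0.27 without the 4 low posterior Hox libraries. Goblet cell genes had a median of −1.12 with 14 of 14 negative, and −0.31 without those libraries; Clca1, a goblet cell product, was at 6049, 6716, 882.6 and 3929 TPM in PBS-IP and at 96.9 to 3259 TPM in Ampicillin-IP. Proliferation genes had a median of −0.92 over 20 tested members and −0.55 without the 4 libraries. Mki67, the proliferation marker, was at 229.2, 194.1, 71.4 and 166.0 TPM in PBS-IP and at 4.76 to 82.5 TPM in Ampicillin-IP (log2 fold change −2.09, limma adjusted p = 0.148). The part of library content in these list medians was not tested beyond leaving out the 4 libraries.

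Lists that kept their median without the 4 libraries included cholesterol synthesis and uptake, at −0.55 with all libraries and −0.68 without them, and the interferon gamma response, at −0.53 and −0.62. Hmgcs1, an early enzyme of cholesterol synthesis, was at 291.5, 318.2, 159.7 and 369.8 TPM in PBS-IP and at 133.4 to 166.6 TPM in Ampicillin-IP, so that PBS-IP replicate 3 alone lay in the ampicillin range (log2 fold change −0.88, limma adjusted p = 0.126, and 0.0408 without that library). The type I interferon list moved from −0.58 to −0.38 when the 4 libraries were left out. Isg15, an interferon-induced modifier on that list, was at 21.4, 16.4, 58.7 and 15.03 TPM in PBS-IP and at 3.24 to 10.98 TPM in Ampicillin-IP, without overlap (log2 fold change −1.80, limma adjusted p = 0.144). Glucocorticoid response genes had medians of 0.47 and 0.46 with and without the 4 libraries. Fkbp5, their best known target, was at 50.7, 55.4, 120.1 and 56.7 TPM in PBS-IP and at 96.2 to 386.1 TPM in Ampicillin-IP (log2 fold change 1.31, limma adjusted p = 0.357). The unfolded protein and amino acid stress list had a median of −0.04 with 8 of 20 members positive.

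**Figure D5:**
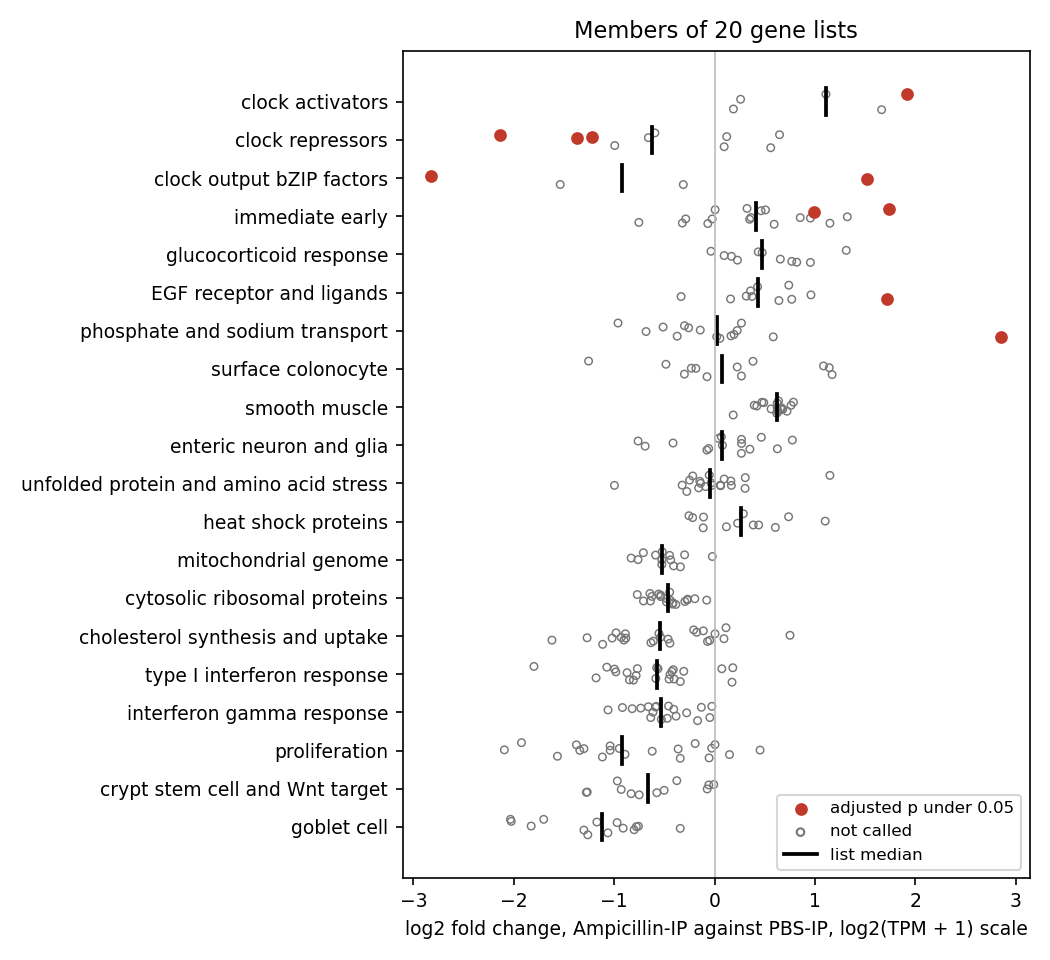
Log2 fold change of each tested member of 20 gene lists in Ampicillin-IP against PBS-IP (x axis, log2(TPM + 1) scale), with the list median as a black bar; red points passed the test at an adjusted p under 0.05 and open points did not. Called members lie in the 3 clock lists shown and in the immediate early, EGF receptor and phosphate transport lists, while smooth muscle members lie to the right of 0 and goblet cell members to the left.

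Ampicillin was also given by mouth (PO) and into a vein (IV), each with its own PBS group (6 libraries a group, 5 in PBS-IV), which share no library with the intraperitoneal groups. Of the 70 genes higher after intraperitoneal ampicillin, 69 had a positive log2 fold change by mouth and 70 by vein, with medians of 0.38 and 0.43 against 0.08 and 0.06 over all tested genes. All 14 genes lower after intraperitoneal ampicillin had a negative value by both routes, with medians of −0.82 and −0.80. The share of all tested genes with each sign by these routes is not given here. Few were called there: 7 of the 84 by mouth, where 0.0702% of all genes were called (0.0234% higher, 0.0468% lower), and 8 of the 84 by vein, where 0.082% were (0.0527% higher, 0.0293% lower). Dbp, Ciart, Per3, Coq10b and Leo1 were called by all 3 routes. Dbp changed by −2.82 into the peritoneum, −2.50 by mouth and −2.74 by vein, Ciart by −2.14, −2.27 and −2.21, and Coq10b by −0.91, −0.83 and −0.90. Group means of Dbp were 34.5 ± 19.6, 45.3 ± 26.3 and 47.5 ± 40.8 TPM (SD, n = 6 each) after ampicillin, and 225 ± 51.9 (n = 4), 229 ± 79.9 (n = 6) and 248 ± 45.5 (n = 5) after PBS.

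The difference in ampicillin effect between routes was tested directly and called 0 genes for peritoneum against mouth and 0 for peritoneum against vein in limma, while 317 and 312 genes had an unadjusted p under 0.05, with a smallest adjusted p of 0.998 and 1. Trib1 differed by 1.29 (SE 0.46) from its effect by mouth and by 1.37 (SE 0.47) from its effect by vein. For Slc34a2 the differences were 1.15 (SE 0.83) and 0.96 (SE 0.85), and for Npas2 1.09 (SE 0.51) and 0.33 (SE 0.52). Slc34a2 averaged 90.6 ± 27.6 TPM after intraperitoneal, 46.9 ± 27.7 after oral and 43.0 ± 30.2 TPM after intravenous ampicillin (SD, n = 6 each), against 11.6 ± 3.85 (n = 4), 10.997 ± 4.47 (n = 6) and 12.3 ± 9.92 TPM (n = 5) in the PBS groups. Standard errors of this size leave room for sizeable route differences that the test did not call. The smooth muscle list had medians of 0.62 into the peritoneum, 1.20 by mouth and 0.30 by vein. For phosphate and sodium transport they were 0.02, −0.58 and 0.22. The part of library content in the route differences, and in the signs shared between routes, was not tested.

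The 3 other antibiotics given alone into the peritoneum served as a second reference that uses no PBS library: Metronidazole-IP and Vancomycin-IP (4 libraries each) and Neomycin-IP (6 libraries). Against their mean, 65 genes were higher and 75 lower after ampicillin, 0.82% of the genes tested (0.38% higher, 0.439% lower), with 2653 genes at an unadjusted p under 0.05. These reference mice were treated too, so a difference can lie on either side. The 75 lower genes included 12 of 23 tested type I interferon genes and 6 of 19 interferon gamma genes, with list medians of −1.15 and −0.77 against −0.10 over all genes. Against PBS-IP, 0 members of either list were called, with medians of −0.58 and −0.53. Ifit3, an interferon-induced gene, stood at 10.3 ± 6.14 TPM (SD, n = 6) in Ampicillin-IP, 21.1 ± 5.01 in Metronidazole-IP (n = 4), 16.4 ± 5.197 in Vancomycin-IP (n = 4) and 127 ± 61.3 in Neomycin-IP (n = 6), beside 22.8 ± 19.4 in PBS-IP (n = 4). Its log2 fold change was −1.82 (SE 0.27, limma adjusted p = 1.15e-05), and that of its near copy Ifit3b, with which it may share reads, was −1.83 (limma adjusted p = 2.34e-06). Ifi27l2a (−1.78), Irgm2 (−1.05) and Igtp (−1.18), the other interferon-induced genes among the 6 of smallest p, were likewise lowest in Ampicillin-IP and highest in Neomycin-IP. Irgm2 was at 20.7 ± 7.01 TPM in Ampicillin-IP, 30.4 ± 3.83 in Metronidazole-IP, 30.9 ± 4.32 in Vancomycin-IP and 81.7 ± 16.7 in Neomycin-IP. The count was 70, 50, 73 and 31 without Ampicillin-IP replicates 1, 2, 3 and 6 and 213 without Ampicillin-IP replicate 5. The smooth muscle score was 10.898, 11.232, 10.889 and 10.515 in Vancomycin-IP replicates 1 to 4. It ran from 8.93 to 10.996 in Metronidazole-IP, from 8.23 to 10.55 in Neomycin-IP and from 7.48 to 10.95 in Ampicillin-IP. Against the other antibiotics the smooth muscle list had a median of −0.60 and the surface colonocyte list 1.06. Beyond the covariate and left-out fits given below, the part of library content in these differences was not tested.

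Of the 84 genes called against PBS-IP, 13 were also called against the other antibiotics in the same direction, 12 higher and 1 lower, which is 15.5% of the first list and 9.29% of the second; both comparisons use the same Ampicillin-IP libraries. Slc34a2 was higher by 2.35 (SE 0.47, limma adjusted p = 0.00218), at 12.2 ± 9.94 TPM in Metronidazole-IP, 15.8 ± 6.64 in Vancomycin-IP and 36.3 ± 19.2 in Neomycin-IP. Slc26a4 was higher by 1.98, Me3 by 1.23 and Trib1 by 1.00, and Clps was lower by 1.87 (limma adjusted p = 6.65e-05, 0.000328, 0.0438 and 0.000301). Lipk, a lipase gene and the sixth of these genes, was higher by 0.86 but stood at only 0.425 to 1.58 TPM in Ampicillin-IP. Clock genes divided. Npas2 was higher by 1.17 (limma adjusted p = 0.0283), while Dbp, at 143 ± 50.4 TPM in Metronidazole-IP, 81.5 ± 15.98 in Neomycin-IP and 43.7 ± 21.9 in Vancomycin-IP, did not pass the test (log2 fold change −1.31, limma adjusted p = 0.0707). Ciart was at 9.72 ± 5.62, 7.32 ± 2.55 and 2.58 ± 1.66 TPM in those groups against 4.04 ± 1.18 TPM in Ampicillin-IP (log2 fold change −0.35, limma adjusted p = 0.559). Npas2 was not called without Ampicillin-IP replicates 1, 2, 3 or 6 (limma adjusted p up to 0.0869), Trib1 not without replicates 1, 2, 3, 4 or 6 (up to 0.118), and Dbp was called without Ampicillin-IP replicate 5 (0.0344).

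The PBS-IP libraries themselves were compared with the mean of PBS-PO and PBS-IV. In limma 0 genes were called, with 659 at an unadjusted p under 0.05 and a smallest adjusted p of 0.772. With a pseudocount of 10 TPM, and also without PBS-IP replicate 3, 1 gene was called. Npas2 was at 8.30 ± 1.67 TPM in PBS-IP, 10.7 ± 4.07 in PBS-PO and 8.86 ± 4.45 in PBS-IV (SD, n = 4, 6 and 5).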

How the data were processed

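Per the labels' protocols, 1000 ng of total RNA per library was selected for poly(A) and sequenced single-end for 75 cycles on a NextSeq 550. Per the submitters' processing notes, the authors used Trim Galore 0.6.2, cutadapt 3.5 and Salmon (version not given) with GRCm39, and they deposited TPM values for 20457 genes, so no counts or depths are known. Strand handling is not given in the sources used here, so antisense neighbours may share signal.

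The deposited TPM were used as log2(TPM + 1). Genes at 1 TPM or more in at least 4 libraries were tested (17083). One model with 97 libraries in 18 groups was fitted with limma 3.58.1 (trend, robust) in R 4.3.3, and adjustment over all tested genes followed Benjamini and Hochberg. Group labels came from the sample titles. Lists of related genes, 44 in all, were described by counts and medians. The members and lists were chosen with earlier results of these data known. Genes were named by rule: up to 16 rises and 14 falls of largest size among called genes at or above 18.6 TPM (the median tested gene) in either group, without predicted models, plus list members and the 6 smallest p against the other antibiotics; exceptions are marked, and a few genes are not reported here. Where a symbol had several identifiers, the one with the highest mean was used. Alternatives were pseudocounts of 0.1 and 10, no filter, quantile normalization, rescaling without mitochondrial genes, other sets of groups, array weights, blocks, covariates and left-out libraries. Of these, 4 were chosen once the data had been seen. The test was tried on simulated data with known changes. Promoters came from RefSeq (GRCm38.p6), matched by symbol for all 9 genes looked up.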

Additional observations from a re-analysis of the deposited data

Results flagged for a closer look

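Among 144 sets of 4 or 6 values examined (levels of named genes and library scores in each group), 22 had 1 library standing far from the others of its group. Chance would flag about 1 in 20 such sets if values were normally distributed, which TPM need not be. Many of these sets share a library. Ampicillin-IP replicate 6 was the highest of its group for Fkbp5 (386.1 TPM), Slc51a (642.1 TPM), Car1 (15740 TPM), Reg3b (112.5 TPM), Bmp3 (208.5 TPM), Neurl1b (130.5 TPM) and Ltb4r2 (9.97 TPM), and the lowest for Clock (56.4 TPM). PBS-IP replicate 3 was the highest of its group for Slc51a (122.1 TPM), Car1 (8394 TPM), Reg3b (142.0 TPM), Fkbp5 (120.1 TPM), Hbegf (22.4 TPM), Ifit1 (189.8 TPM), Ifit3 (51.9 TPM) and Isg15 (58.7 TPM), and had the lowest posterior Hox score (1.92). PBS-IP replicate 1 was the highest for the clock genes Per3 (90.0 TPM), Nr1d2 (174.5 TPM) and Tef (276.9 TPM) and the lowest for Ifi27l2a (6.74 TPM). Slc34a2 was highest, at 17.3 TPM, in PBS-IP replicate 4. The cause of these separations was not tested.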

How the results depend on the processing

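The count of 84 called genes against PBS-IP became 46 (30 higher, 16 lower) with quantile normalization, 13 in a fit of the 2 groups alone, 1655 with array weights, 496 with the smooth muscle and posterior Hox scores as covariates, 23 without the 12 libraries at the end of the table (which include PBS-IP replicates 3 and 4), 210 with the 3 PBS groups pooled, 3 without the 4 low posterior Hox libraries, 26 with PBS-IP replicates 1 and 2 only and 8 with PBS-IP replicates 3 and 4 only; the cause was not tested. With the replicate number as a block 0 genes were called, and 0 with the library number; same-numbered samples deviated with correlations of 0.36, 0.24, −0.45 and −0.10, and samples with the same library number with 0.36, 0.31, 0.22 and −0.21; neither numbering had every pair above 0.1. Leaving out 1 library gave 34 to 136 genes. Under the alternatives run, each of the 84 genes kept its direction, but every alternative reused libraries on which these genes were called. Against the other antibiotics the count of 140 ranged from 31 to 213 with 1 Ampicillin-IP or PBS-IP library left out. No library of the other antibiotics was left out singly, so this range does not cover the reference side. The count was 459 with the covariates and 39 without the low posterior Hox libraries (3, 2, 5 and 3 libraries kept for ampicillin, metronidazole, neomycin and vancomycin). For PBS-IP against the other PBS groups the count was 1 in place of 0 with a pseudocount of 10. It was 0 to 1 with 1 Ampicillin-IP or PBS-IP library left out. Without counts, counting error of low genes cannot be told apart from other spread.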
